A study of Mus musculus with 18 samples.

Results

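H2-K1, H2-D1, B2m, Tap1, Tap2, Tapbp, Psmb8, Psmb9, Psmb10 and Nlrc5 are the core genes of the MHC class I antigen presentation pathway and its inducible proteasome. They were taken by gene symbol as 10 of the 23420 genes in each table, and all 10 passed the filter on low values. RNA was sequenced from bead-purified spleen B cells of lupus-prone MRL/lpr mice aged 5 to 7 weeks, in 18 libraries of 6 groups with 3 replicates each. In the first arm, female mice that all lacked Tlr7 carried either 1 working copy of Tlr9 (Tlr9+/-, called Tlr9het here) or Tlr997, and their B cells were cultured for 4 h alone or with the TLR9 agonist CpG at 10 µg/ml. In the second arm, male mice that all lacked Tlr9 carried Tlr779, and their B cells were cultured for 4 h alone or with the TLR7 agonist CL097 at 5 µg/ml. Tlr997 encodes a receptor with the endosomal and transmembrane parts of TLR9 and the signaling TIR domain of TLR7, inserted at the Tlr9 locus, and Tlr779 is the converse receptor, inserted at the Tlr7 locus. Control B cells with WT Tlr7 were not analysed here, so the second arm holds a response to CL097 with no genotype to set it against, and sex, agonist and remaining receptor all differ between the arms. The treatment text of the labels writes the first-arm control as Tlr9-/-, whereas its titles and descriptions write Tlr9+/-, and the titles were followed.

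MHC class I molecules carry short peptides from the cytosol to the cell surface, where CD8+ T cells read them. The immunoproteasome cuts proteins into such peptides with catalytic subunits (encoded by Psmb8, Psmb9 and Psmb10) that replace those of the constitutive proteasome (Psmb5, Psmb6 and Psmb7), TAP pumps the peptides into the endoplasmic reticulum, and tapasin helps to load them onto a heavy chain paired with β2-microglobulin. Interferons are known to raise most of these genes through IRF1, and NLRC5 is the transactivator dedicated to class I promoters, as CIITA is for class II.

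Of these genes 7 lie on mouse chromosome 17, and in the GENCODE M21 annotation of GRCm38 they span 1.35 Mb from Tapbp to H2-D1. Psmb9, Tap1, Psmb8 and Tap2 sit side by side within 34.3 kb, at chr17:34181987-34216321. B2m is on chromosome 2, and Psmb10 and Nlrc5 are both on chromosome 8. RefSeq promoter windows on GRCm38.p6 were found for 8 of the 10 genes, all but Tap2 and Nlrc5. Shown are the 250 bases before the start of H2-K1 (the first of its 2 entries, minus strand, chr17:34000348-34000597) and H2-D1 (plus strand, chr17:35262844-35263093). Those of B2m (plus strand, chr2:122147437-122147686) and Psmb8 (plus strand, chr17:34197945-34198194) are shown as well. The last stretch lies between the opposed RefSeq starts of Psmb9 and Tap1 (plus strand, chr17:34187331-34187555). GENCODE M21 starts Psmb9 at chr17:34187764, within Tap1, so this stretch depends on the RefSeq starts. Capitals mark any match to GAAANNGAA (like an interferon-stimulated response element), TTCNNNGAA (like a STAT-binding GAS element) or GGGNNTTCC (like an NF-κB site), searched on both strands.
H2-K1: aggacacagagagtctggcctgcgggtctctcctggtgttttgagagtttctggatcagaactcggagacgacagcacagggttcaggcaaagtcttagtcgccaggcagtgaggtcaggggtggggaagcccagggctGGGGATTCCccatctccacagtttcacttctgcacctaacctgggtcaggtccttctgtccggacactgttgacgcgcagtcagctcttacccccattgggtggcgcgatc
H2-D1: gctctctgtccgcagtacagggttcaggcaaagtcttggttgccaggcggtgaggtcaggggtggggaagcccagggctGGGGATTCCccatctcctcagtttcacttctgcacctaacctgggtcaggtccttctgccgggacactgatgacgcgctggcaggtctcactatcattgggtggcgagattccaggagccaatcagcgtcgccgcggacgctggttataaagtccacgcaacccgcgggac
B2m: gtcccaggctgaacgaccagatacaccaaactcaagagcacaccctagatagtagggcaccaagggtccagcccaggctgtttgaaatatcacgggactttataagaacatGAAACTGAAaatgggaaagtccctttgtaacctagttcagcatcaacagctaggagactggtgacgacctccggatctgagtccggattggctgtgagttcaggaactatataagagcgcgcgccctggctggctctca
Psmb8: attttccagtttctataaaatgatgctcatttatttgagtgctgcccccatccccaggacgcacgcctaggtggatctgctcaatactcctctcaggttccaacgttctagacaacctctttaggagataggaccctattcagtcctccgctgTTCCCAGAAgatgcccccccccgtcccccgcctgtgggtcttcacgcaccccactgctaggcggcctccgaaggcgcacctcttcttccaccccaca
Psmb9-Tap1: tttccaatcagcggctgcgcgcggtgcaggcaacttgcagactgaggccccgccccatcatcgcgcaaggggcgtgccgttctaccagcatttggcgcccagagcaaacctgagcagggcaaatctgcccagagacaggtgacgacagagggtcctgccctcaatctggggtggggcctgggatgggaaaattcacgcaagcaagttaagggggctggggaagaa
The heavy-chain promoters each held GGGGATTCC, 111 bases before the start of H2-K1 and 171 bases before that of H2-D1. B2m held GAAACTGAA 139 bases before its start, and Psmb8 held TTCCCAGAA 97 bases before its start. The 225 bases between the RefSeq starts of Psmb9 and Tap1 held none of the 3 patterns, nor did the windows of Tapbp and Psmb10. Of 27025 promoters of the same length, 7.16% held GAAANNGAA, 7.18% held TTCNNNGAA and 4.88% held GGGNNTTCC. These are matches of letters in the reference strain and not sites of binding. Elements that differ from the 3 patterns in a letter or in spacing stay in lower case. An unmarked stretch may therefore still hold such an element.

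The deposited values are log2 CPM (read counts scaled to library size, on a log2 scale), and gene-wise Pearson correlations between replicates of a group were 0.94 to 0.99. Read totals were not used here, so the depth of each library is unknown and no counting error can be given. Tlr7 read 2.68 to 3.48 log2 CPM in unstimulated Tlr9het libraries and 4.81 to 5.19 in unstimulated Tlr997 libraries, both from mice that lack Tlr7, and Tlr9 read 7.17 to 7.33 in unstimulated Tlr779 libraries from mice that lack Tlr9. Each chimeric transcript holds TIR sequence of the other receptor and the extent of the deletions was not examined, so gene-level values do not check the genotypes. B cell markers averaged 9.34 to 9.75 log2 CPM in unstimulated libraries, and T cell markers averaged at most 0.85 there. The 5 macrophage markers in the tables averaged 4.31 to 5.78 and the 3 plasma cell markers 5.43 to 6.65 in unstimulated libraries, so markers of other cells were measured too, and their part in the results was not tested. In bulk RNA, fewer cells of a type and less RNA per cell cannot be told apart.

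All 10 genes were measured in every unstimulated library, at 5.60 log2 CPM or more. Compared per kilobase of merged exons, in unstimulated Tlr9het B cells, B2m was highest at 11.66 log2 CPM per kb, followed by H2-K1 at 10.46. Psmb8 followed at 7.70, then Tapbp at 7.05, Tap1 at 6.91 and H2-D1 at 6.38. Psmb9 read 5.70, Psmb10 read 5.42, Tap2 read 5.32 and Nlrc5, the transactivator, was lowest at 3.80 log2 CPM per kb. Tapbp and Tap1, and likewise Psmb10 and Tap2, were neighbours in this order whose gap was no larger than the sum of their SDs (n = 3). The low level of H2-D1 beside H2-K1 needs care, because MRL mice carry class I alleles other than those of the mm10 reference strain, and 3.1% of the 75-base windows of H2-K1 transcripts and 5.4% of those of H2-D1 occur unchanged in transcripts of other genes, mostly other class I genes. In GENCODE M21, Tap1 and Psmb9 share 212 exonic bases on opposite strands. The library kit was a stranded one, but the strand setting of the counting is not given in the sources used here.

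**Figure D1:**
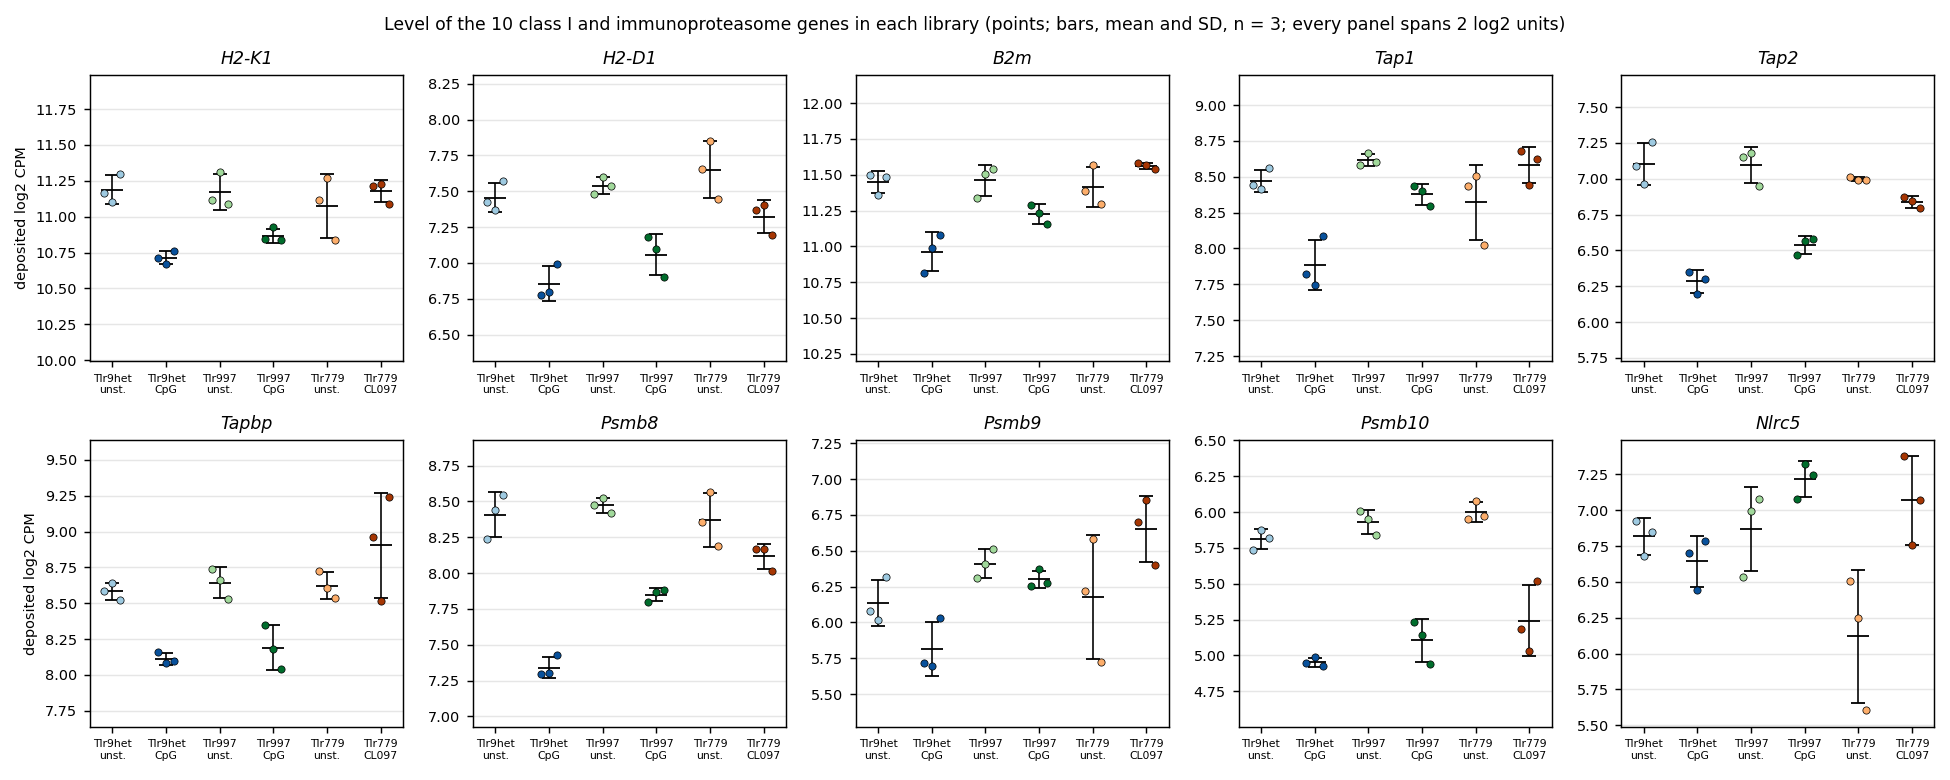
Deposited log2 CPM (vertical axis) of each gene in the 6 groups (horizontal axis), with 1 point per library and bars for mean and SD (n = 3). Psmb8 lies lowest in the 3 CpG-treated Tlr9het libraries, at 7.3 to 7.43, and Psmb10 lies below its unstimulated values with either agonist.

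In Tlr9het B cells given CpG, 5 of the 10 genes fell, namely Psmb8, Psmb10, Tap2, H2-D1 and Tap1, with fold changes of 1.50 to 2.09, and none rose. A gene is said here to have risen or fallen when limma, fitted across all tested genes, gave a Benjamini-Hochberg adjusted p under 0.05 and a log2 change of at least 0.5. Over all 11494 tested genes, 29.7% rose and 28.2% fell by the same rule, so 5 of 10 stands beside a background of more than 1 gene in 4 in that direction. The median log2 change of the 10 genes was -0.54, beside 0.04 over all tested genes. All 10 changes were negative, and 9 of them had an adjusted p under 0.05 at some size. Of all 11494 tested genes, 8353 had such an adjusted p at any size, and 4063 of these were lower.

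Among the subunits of the immunoproteasome, Psmb8, the chymotrypsin-like subunit, moved most. It read 8.24, 8.44 and 8.54 log2 CPM without stimulus and 7.3, 7.3 and 7.43 with CpG, a log2 change of -1.07 ± 0.07 (SE; limma adjusted p = 1.46e-08). Psmb10 read 5.74, 5.88 and 5.82 without stimulus and 4.94, 4.99 and 4.93 with CpG, a change of -0.86 ± 0.08 (SE; limma adjusted p = 5.41e-07). Neither pair of groups overlapped. How many of all tested genes had groups without overlap was not counted, here or in the later comparisons. Psmb9, whose product takes the place of the caspase-like subunit, read 6.08, 6.02 and 6.32 without stimulus and 5.72, 5.70 and 6.03 with CpG. Its groups overlapped, and its change of -0.32 ± 0.10 (SE; limma adjusted p = 0.011) was below the size required.

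Of the peptide transporter genes, Tap2 read 7.09, 6.96 and 7.26 log2 CPM without stimulus and 6.35, 6.20 and 6.30 with CpG, a change of -0.82 ± 0.08 (SE; limma adjusted p = 8.66e-07). Tap1 read 8.44, 8.42 and 8.56 without stimulus and 7.82, 7.75 and 8.09 with CpG, a change of -0.59 ± 0.08 (SE; limma adjusted p = 1.36e-05). Every CpG library lay below every unstimulated library for both genes of the transporter. Tapbp, which encodes tapasin, lay at 8.52 to 8.64 without stimulus and at 8.08 to 8.16 with CpG, and its change of -0.47 was just short of the size required.

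The heavy chain H2-D1 read 7.43, 7.37 and 7.57 log2 CPM without stimulus and 6.78, 6.80 and 6.99 with CpG, a change of -0.60 ± 0.08 (SE; limma adjusted p = 1.91e-05). H2-K1 lay at 11.10 to 11.30 without stimulus and 10.67 to 10.76 with CpG, and B2m at 11.36 to 11.50 and 10.82 to 11.08. Their groups did not overlap, and their changes of -0.48 each had adjusted p-values of 3.69e-05 and 9.19e-05 in limma but stayed under 0.5. The transactivator Nlrc5 read 6.93, 6.68 and 6.85 without stimulus and 6.70, 6.45 and 6.78 with CpG. Its groups overlapped, and its change of -0.17 had a 95% confidence interval of -0.46 to 0.11. Which genes met the size of 0.5 shifted with single libraries, and 5 to 7 of the 10 met it when each library was left out in turn.

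Markers of cell types moved in the same libraries. The 6 B cell markers averaged 9.38 to 9.56 log2 CPM without stimulus and 7.59 to 7.65 with CpG in Tlr9het libraries, and their summed level went from 5788 to 6456 CPM down to 1653 to 1721. The 5 macrophage markers averaged 4.83 to 5.31 without stimulus and 4.48 to 4.59 with CpG, and the 3 plasma cell markers 5.61 to 6.06 and 4.96 to 5.44. The 5 T cell markers summed to at most 9.41 CPM without stimulus and at most 21.2 with CpG, and the 4 NK cell markers to at most 6.79 and 10.7. B cell markers were lower with the agonist in the other experiments too, with averages of 9.34 to 9.49 and 7.96 to 8.30 in Tlr997 libraries and of 9.44 to 9.75 and 8.36 to 8.59 in Tlr779 libraries. Their part in the responses was not tested.

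In Tlr997 B cells given CpG, Psmb10, Psmb8 and Tap2 fell, 3 of 10 genes, and none of the 10 rose, while 26% of all tested genes fell and 29.6% rose. The median log2 change of the 10 genes was -0.38, beside 0.07 over all tested genes. Psmb10 read 6.0, 5.95 and 5.84 log2 CPM without stimulus and 5.23, 5.14 and 4.94 with CpG, a change of -0.83 ± 0.08 (SE; limma adjusted p = 8.97e-07). Psmb8 read 8.48, 8.53 and 8.42 without stimulus and 7.80, 7.87 and 7.88 with CpG, a change of -0.63 ± 0.07 (SE; limma adjusted p = 3.68e-06). Tap2 read 7.15, 7.18 and 6.95 without stimulus and 6.47, 6.57 and 6.58 with CpG, a change of -0.56 ± 0.08 (SE; limma adjusted p = 4.26e-05). All 3 of these genes had fallen in Tlr9het cells as well. No library of one group reached into the other, but the share of all tested genes with such separate groups was not counted.

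The remaining genes of the loading pathway had differences under 0.5 in Tlr997 cells. H2-D1, at -0.48, and Tapbp, at -0.45, were nearest to that size and both passed it without Tlr997 CpG replicate 1, which brought the count to 5 of 10. H2-K1 had a difference of -0.30, Tap1 and B2m of -0.24 each, and Psmb9 of -0.11 with a confidence interval of -0.33 to 0.11. Nlrc5 read 6.53, 7.00 and 7.08 log2 CPM without stimulus and 7.08, 7.33 and 7.25 with CpG. Its change was 0.35 ± 0.13 (SE; limma adjusted p = 0.031), the one positive value among the 10, under the size required and with groups that overlapped.

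With CL097, the class I genes of Tlr779 B cells moved both ways. Psmb10 fell and Nlrc5 rose, 1 of 10 genes in each direction, while 23.6% of 11082 tested genes fell and 22.7% rose. The median log2 change of the 10 genes was 0.13, beside -0.02 over all tested genes. Psmb10 read 5.95, 6.08 and 5.97 log2 CPM without stimulus and 5.18, 5.03 and 5.52 with CL097, a change of -0.76 ± 0.13 (SE; limma adjusted p = 0.0011), with no overlap. Nlrc5 read 6.51, 6.25 and 5.60 without stimulus and 7.38, 6.76 and 7.07 with CL097, a 1.93-fold rise (log2 change 0.95 ± 0.24, SE; limma adjusted p = 0.0088). Every CL097 library lay above every unstimulated one, although the third unstimulated library lay well below the other two, and without it the change was 0.69. With no filter on low values the adjusted p of Nlrc5 was 0.099.

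None of the other 8 genes met both criteria with CL097. H2-D1, at -0.33, and Tap2, at -0.16, had adjusted p-values of 0.031 and 0.044 in limma and groups that did not overlap, but small changes. Psmb8 had a difference of -0.25, with a confidence interval of -0.48 to -0.02. Psmb9 read 6.22, 6.58 and 5.72 log2 CPM without stimulus and 6.70, 6.85 and 6.40 with CL097. Its change of 0.48 had an interval of -0.01 to 0.96, and it passed both criteria without Tlr779 unstimulated replicate 2, at 0.68, or without Tlr779 CL097 replicate 3, at 0.60, which brought the count to 3 of 10. H2-K1, B2m, Tap1 and Tapbp had differences of 0.10, 0.15, 0.26 and 0.28, each with an interval that held 0. Since the CL097 and CpG experiments differ in sex, receptor and agonist, these values stand beside those of the CpG experiments without a test between them.

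**Figure D2:**
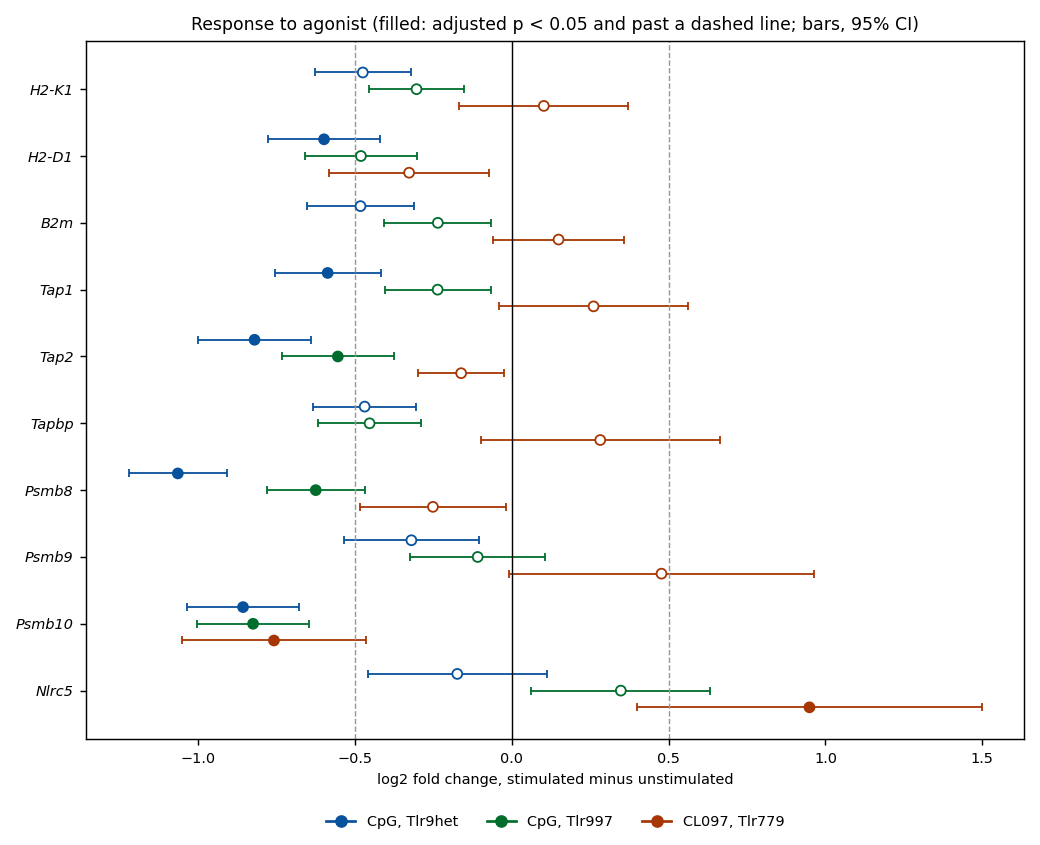
Log2 fold change with agonist (horizontal axis, stimulated minus unstimulated) of each gene (vertical axis) with 95% confidence intervals, in Tlr9het and Tlr997 cells with CpG and in Tlr779 cells with CL097. Filled points met both criteria; Psmb10 is filled in all 3 responses, at -0.86, -0.83 and -0.76.

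The constitutive catalytic subunits moved the other way with CpG. Psmb5, Psmb6 and Psmb7 all rose, by 1.32, 0.79 and 0.97 log2 in Tlr9het cells and by 1.25, 0.74 and 0.83 in Tlr997 cells. With CL097, Psmb5 and Psmb7 rose by 0.68 and 0.58 in Tlr779 cells, and Psmb6 had a difference of 0.36. Of all tested genes, 29.7%, 29.6% and 22.7% rose in Tlr9het, Tlr997 and Tlr779 cells. The ratio of each inducible gene to the gene of the subunit it replaces, taken within a library and per kilobase of exons, is free of a scaling factor common to that library, but not of the quantile normalization, nor of the offsets removed per replicate number before deposit. The ratio of Psmb8 to Psmb5 was 9.08 in unstimulated Tlr9het cells and 1.74 with CpG, with log2 ratios of 3.23, 3.21 and 3.11 against 0.76, 0.75 and 0.88. It went from 10.2 to 2.77 with CpG in Tlr997 cells and from 8.45 to 4.43 with CL097 in Tlr779 cells. No stimulated library reached an unstimulated one in any of the 3.

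The ratio of Psmb10 to Psmb7 followed the same pattern, from 0.69 to 0.20 with CpG in Tlr9het cells, from 0.66 to 0.21 in Tlr997 cells and from 0.69 to 0.27 with CL097 in Tlr779 cells, again without overlap. For Psmb9 to Psmb6 the ratio went from 0.41 to 0.19 in Tlr9het cells and from 0.51 to 0.28 in Tlr997 cells, without overlap, whereas in Tlr779 cells it was 0.42 without stimulus and 0.45 with CL097, and the groups overlapped. With 3 libraries against 3, an exact permutation test cannot give a two-sided p below 0.1, so these ratios are given without a test. The level of Psmb5 is uncertain, because 36.8% of its 75-base windows also occur in transcripts of Gm3375 or Mir686. The third unstimulated Tlr997 library had a log2 ratio of Psmb8 to Psmb5 of 3.97 beside 3.03 and 3.04. In GENCODE M21, Psmb7 shares 405 exonic bases, 34.9% of its own, with Nek6 on the opposite strand. The strand setting of the counting is not given, so the level of Psmb7 is uncertain too.

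**Figure D3:**
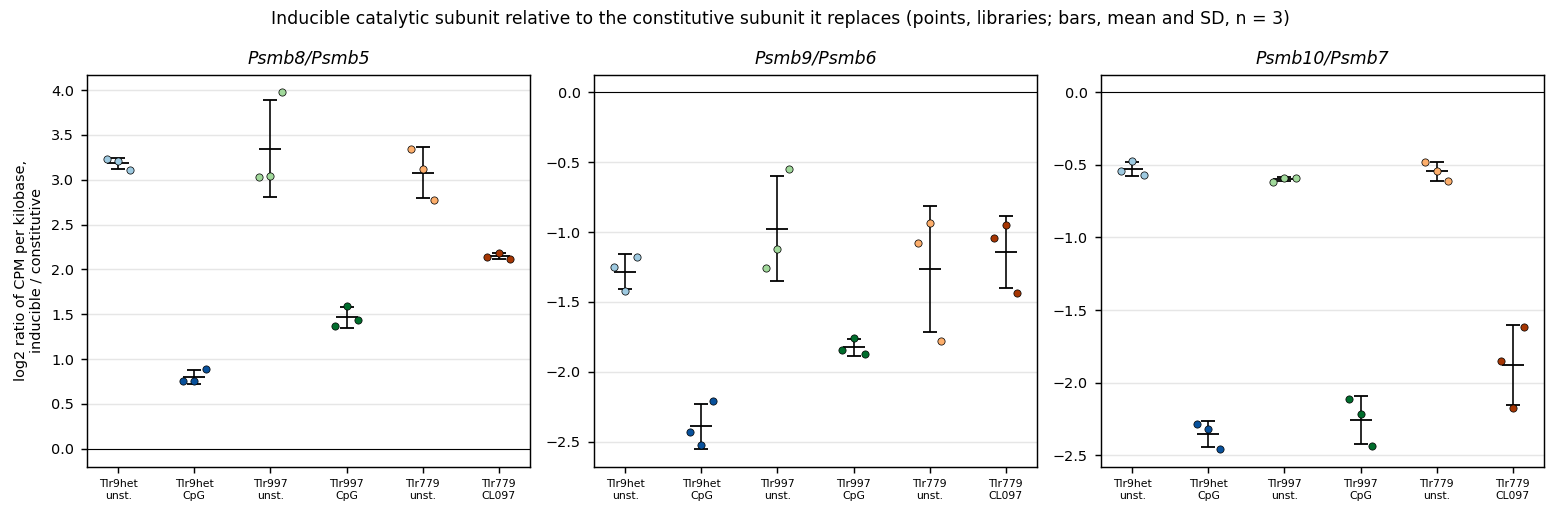
Log2 ratio of CPM per kilobase (vertical axis) of each inducible catalytic subunit to its constitutive counterpart in the 6 groups, with 1 point per library and bars for mean and SD (n = 3). With CpG the mean Psmb8/Psmb5 value is 0.80 in Tlr9het and 1.47 in Tlr997 libraries, against 3.18 and 3.35 without stimulus, and Psmb9/Psmb6 overlaps between unstimulated and CL097-treated Tlr779 libraries.

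Without stimulus, no difference between Tlr997 and Tlr9het met both criteria for any of the 10 genes. Over all tested genes limma called 0.0174% higher and 0% lower in Tlr997 cells, with 1237 of 11494 genes at an unadjusted p under 0.05. Psmb9 was the 1 gene of the 10 at an unadjusted p under 0.05, with a log2 difference of 0.27 (limma adjusted p = 0.38). The widest of the other intervals belonged to Nlrc5, from -0.23 to 0.34, so differences of 0.5 lay outside the interval of each of the 10 genes.

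With CpG, Psmb8 and Nlrc5 were higher in Tlr997 than in Tlr9het cells, 2 of 10 genes by both criteria, where 1.25% of tested genes were higher and 1.47% lower. All 10 differences were positive, with a median of 0.26 log2 beside 0.0005 over all tested genes. Psmb8 was 0.51 ± 0.07 higher (SE; limma adjusted p = 0.0014), and its Tlr997 values of 7.80 to 7.88 all lay above its Tlr9het values of 7.3 to 7.43. Nlrc5 was 0.57 ± 0.13 higher (SE; limma adjusted p = 0.023), and its 7.08 to 7.33 lay above 6.45 to 6.78. Tap1, at 0.49 ± 0.08 (SE; limma adjusted p = 0.0027), and Psmb9, at 0.48 ± 0.10 (SE; limma adjusted p = 0.013), had groups that did not overlap and fell just short of 0.5. B2m and Tap2 differed by 0.26 each, H2-D1 by 0.20, H2-K1 and Psmb10 by 0.15 each and Tapbp by 0.08, all with adjusted p over 0.05.

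Both calls lay close to a threshold. Psmb8 stood at 0.48 to 0.50 and so under the size required without Tlr9het CpG replicate 1 or 2 or Tlr997 CpG replicate 2 or 3. Nlrc5 lost its call without each of those same libraries (limma adjusted p = 0.064 to 0.11), with no filter on low values (0.14), with no variance trend (0.073) and with all 18 libraries in the fit (0.12). Without Tlr9het CpG replicate 3, by contrast, Tap1 and Psmb9 joined, at 0.59 each, and 4 of 10 met both criteria. B cell markers also averaged higher with CpG in Tlr997 than in Tlr9het libraries, 7.96 to 8.30 against 7.59 to 7.65 log2 CPM, and their part in the result was not tested. The 8-gene interferon response summary averaged 6.35 to 6.99 with CpG in Tlr997 libraries and 6.02 to 6.13 in Tlr9het libraries, and its part was not tested either.

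The difference of the CpG responses, Tlr997 minus Tlr9het, was positive for all 10 genes, with a median of 0.23 log2 beside 0.01 over all tested genes. Limma called 0 of the 10 by both criteria, where 0.687% of tested genes were called higher and 0.853% lower. At an unadjusted p under 0.05 were 5 of the 10, beside 1839 of all 11494 tested genes. Psmb8 was the 1 gene of the 10 with an adjusted p under 0.05, at 0.44 ± 0.10 (SE; limma adjusted p = 0.045), beside 239 of all tested genes. Nlrc5 had the largest value, 0.52, with an interval of 0.12 to 0.93 (limma adjusted p = 0.19). With a replicate block within genotype it was called, at the same 0.52 (limma adjusted p = 0.017), although same-numbered Tlr997 libraries deviated together in only 1 of 3 pairs at a correlation over 0.1. Tap1 followed at 0.35 (limma adjusted p = 0.14), while Tapbp and Psmb10, at 0.02 and 0.03, had intervals centred near 0. Without Tlr9het unstimulated replicate 1, Psmb8 reached 0.53 and was called.

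**Figure D4:**
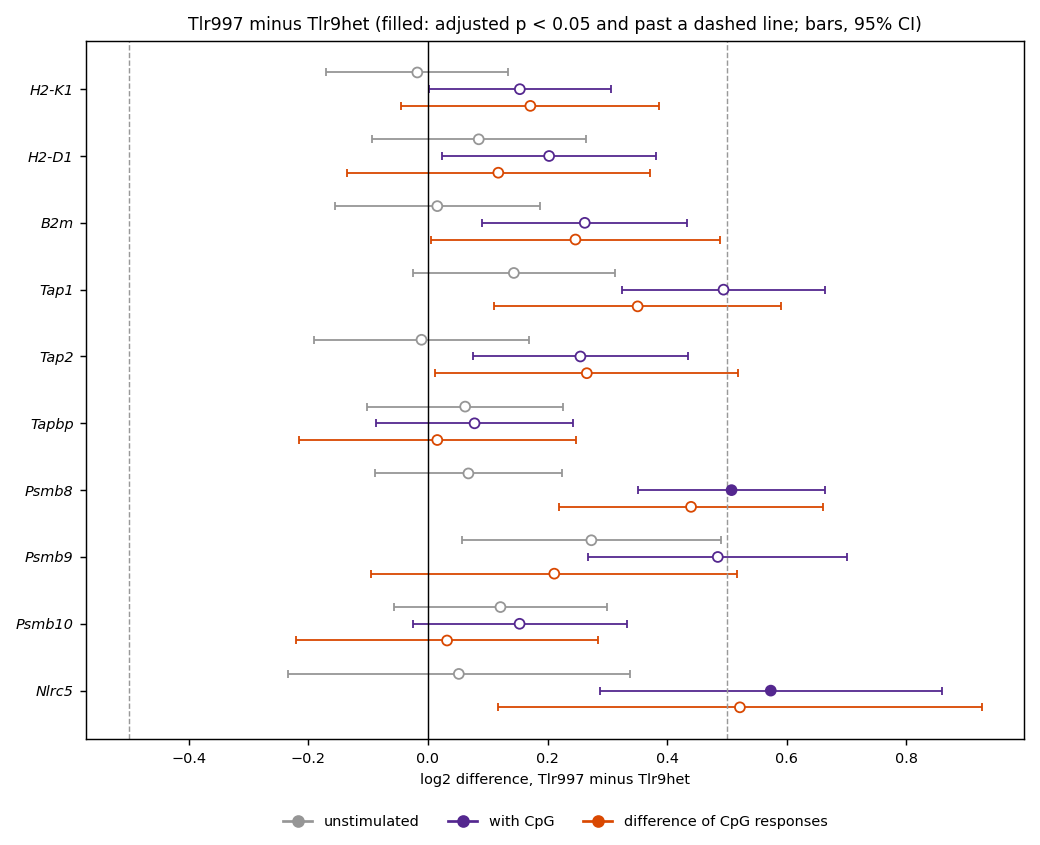
Log2 difference between Tlr997 and Tlr9het (horizontal axis) of each gene (vertical axis) without stimulus, with CpG, and as the difference of the CpG responses, with 95% confidence intervals. With CpG every point lies to the right of 0, and Psmb8 at 0.51 and Nlrc5 at 0.57 are the filled points.

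Transcription factors that act on class I promoters were followed in a list of 15 genes. With CpG in Tlr9het cells 4 rose and 6 fell, where 29.7% of all tested genes rose and 28.2% fell. In Tlr997 cells 3 rose and 5 fell, beside 29.6% and 26% of all tested genes. Irf1, an activator of class I promoters, fell by 1.09 log2 in Tlr9het cells, where it went from 7.33 to 7.51 down to 6.06 to 6.60 log2 CPM, and it fell by 0.68 in Tlr997 cells. Stat2, which relays type I interferon receptor signals, fell by 1.53 in Tlr9het cells, from 7.53 to 7.93 down to 6.21 to 6.31 log2 CPM, and fell by 0.74 in Tlr997 cells. Rfxank, a subunit of the RFX complex that binds class I and class II promoters, fell by 1.01 and fell by 0.80. Irf2, a related factor that can repress such promoters, fell by 1.91 in Tlr9het cells and fell by 2.31 in Tlr997 cells. Nfkb1, a subunit of NF-κB, rose by 1.82 and 1.66, and Ciita, the class II transactivator related to NLRC5, fell by 1.01 in Tlr9het cells and fell by 0.58 in Tlr997 cells. With CL097, 3 of the 15 rose and 3 fell in Tlr779 cells, near the 22.7% and 23.6% of all tested genes, and Nfkb1 rose by 1.52, Ciita fell by 1.17 and Irf2 fell by 0.97. Irf1 and Stat2 had changes of 0.26 and 0.16 there, with limma adjusted p of 0.27 and 0.68.

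Between the genotypes with CpG, 1 of the 15 factors differed by both criteria. It was Stat2, which was 0.72 higher in Tlr997 cells (limma adjusted p = 0.0022). The difference of the responses was called for Stat2 at 0.79 (limma adjusted p = 0.022), while Irf1, at 0.42, had an adjusted p of 0.26. Without stimulus, limma called 0 of the 15, and 2 had an unadjusted p under 0.05, beside 1237 of 11494 tested genes.

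**Figure D5:**
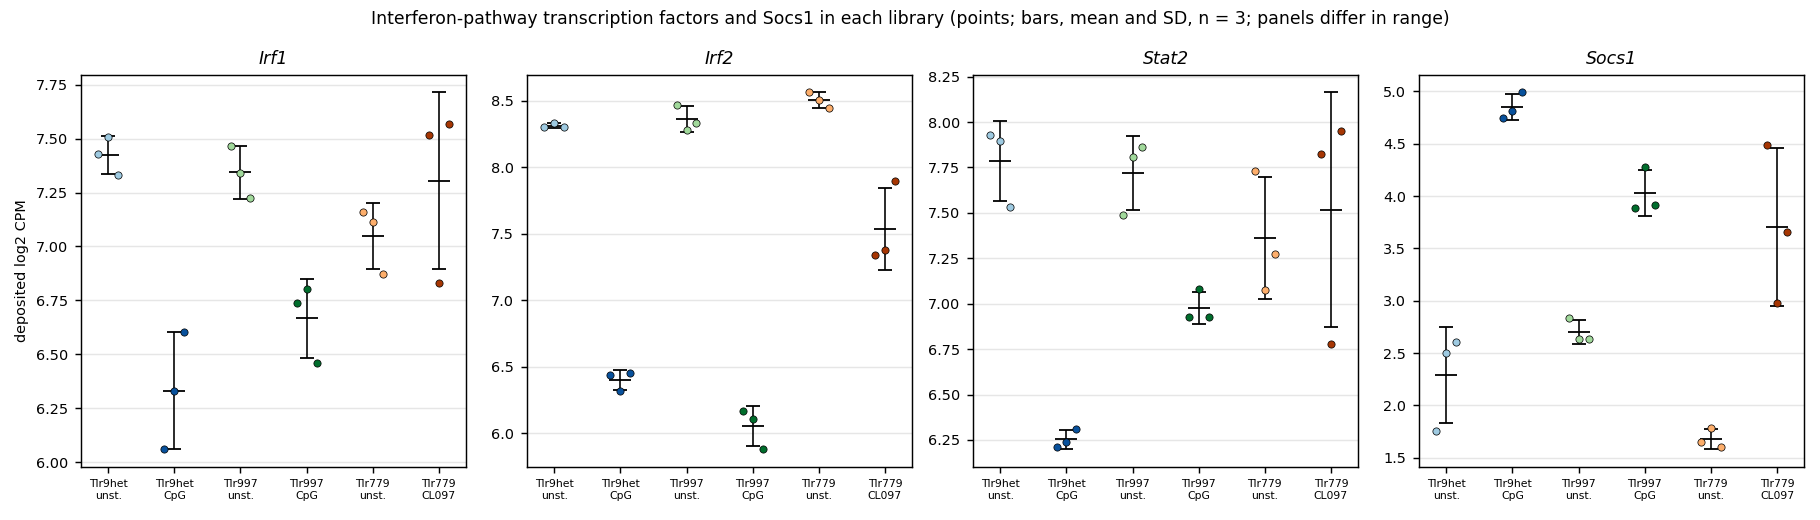
Deposited log2 CPM (vertical axis) of Irf1, Irf2, Stat2 and Socs1 in the 6 groups, with 1 point per library and bars for mean and SD (n = 3). With CpG, Stat2 lies at 6.21 to 6.31 in Tlr9het and 6.93 to 7.08 in Tlr997 libraries, whereas Socs1 lies higher in Tlr9het libraries.

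Of 18 genes for interferon ligands, receptors and response, Ifnb1 and Ifng were above 0 log2 CPM in Tlr9het libraries with CpG but in none without stimulus, so passing the filter through the CpG libraries meant that they differed. Of the other 16, 5 rose and 3 fell with CpG in Tlr9het cells, beside 29.7% and 28.2% of all tested genes. In Tlr997 cells, where this held for Ifnb1, 10 of the other 17 rose and 3 fell, beside 29.6% and 26%. Of the 16 that passed the filter in Tlr779 cells, 9 rose and 1 fell with CL097, beside 22.7% and 23.6%. Ifnb1, the gene for interferon-β, lay between -4.83 and -3.53 log2 CPM in unstimulated Tlr9het libraries, near the floor of the tables, and between 1.51 and 2.16 with CpG. It lay between -4.90 and -3.71 in unstimulated Tlr997 libraries and between -0.32 and 1.12 with CpG. The interferon-induced chemokine Cxcl10 rose by 2.55, 3.31 and 3.49 in Tlr9het, Tlr997 and Tlr779 cells, and Isg15, a ubiquitin-like protein, rose by 2.18, 2.09 and 2.62. Mx1, an antiviral GTPase, rose by 2.35 with CL097 in Tlr779 cells and by 0.89 with CpG in Tlr997 cells, and had a change of -0.14 in Tlr9het cells. Ifnar1, a chain of the type I interferon receptor, had changes of -1.53, -1.50 and -0.81 in the same order and fell in all 3. The response gene Ifit3 fell in Tlr9het cells, from 5.84 to 7.18 down to 5.07 to 5.22 log2 CPM. Its responses in Tlr997 and Tlr779 cells were not called.

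Socs1, a feedback inhibitor of interferon and other cytokine signals, rose by 2.56 log2 in Tlr9het cells, 1.32 in Tlr997 cells and 2.03 in Tlr779 cells. With CpG it was lower in Tlr997 than in Tlr9het cells, with a difference of -0.82 (limma adjusted p = 0.03), and the difference of its responses was called at -1.24 (limma adjusted p = 0.043). Ifngr1, a chain of the interferon-γ receptor, was lower in Tlr997 cells with CpG, with a difference of -0.89 and a difference of responses of -0.93 (limma adjusted p = 9.58e-04). Of the 18 genes, 3 were higher and 2 lower in Tlr997 cells with CpG, and Usp18, Ifit3 and Igtp were the higher ones, at 1.21, 1.12 and 0.52. For the difference of responses 2 of the 18 were called, Socs1 and Ifngr1, both lower.

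Of 12 other class I heavy chains and class I-like genes 9 were tested. With CpG 6 of the 9 fell in Tlr9het cells and 4 in Tlr997 cells, where 28.2% and 26% of all tested genes fell, and none rose. In Tlr997 libraries Mr1 was above 0 log2 CPM without stimulus only, and 3 of the other 8 fell. With CL097 2 of 9 fell in Tlr779 cells, near the 23.6% of all tested genes. Mr1, which presents vitamin metabolites, had log2 changes of -2.64, -3.57 and -1.78 in Tlr9het, Tlr997 and Tlr779 cells, and Cd1d1, which presents lipids, had changes of -2.29, -2.26 and -1.50 and fell in all 3. H2-T23, a nonclassical heavy chain, fell by 0.86 in Tlr9het cells and fell by 0.62 in Tlr997 cells. H2-Q10 and H2-T22 ran the other way without being called, at 0.74 and 0.05 in Tlr9het cells and 0.76 and 0.40 in Tlr997 cells. H2-T24 fell by 1.08 in Tlr9het cells and fell by 0.57 in Tlr997 cells and was the 1 gene of the list called between the genotypes with CpG, 0.50 higher in Tlr997 cells (limma adjusted p = 0.047). H2-Q6 and H2-Q7 sat at the floor of -5.05 log2 CPM in every library, so nothing can be said of their levels.

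Genes of peptide loading and trimming moved both ways. Of 9 such genes, 4 rose and 1 fell with CpG in Tlr9het cells, 3 rose and 1 fell in Tlr997 cells, and 2 rose with CL097 in Tlr779 cells, beside 29.7%, 29.6% and 22.7% of all tested genes that rose. Ero1l, an oxidase of the endoplasmic reticulum, rose by 1.59, 1.34 and 1.19 log2, and Erap1, the peptidase that trims class I peptides, rose by 0.88, 0.70 and 0.64. Sec61g, a subunit of the Sec61 channel, rose by 0.81 in Tlr9het cells. Calr, a chaperone of the loading complex, had changes of -0.59 and -0.58 with CpG in Tlr9het and Tlr997 cells. Of the proteasome activators and assembly factors, 6 of 7 rose in Tlr9het cells, 4 of 7 in Tlr997 cells and 4 of 7 in Tlr779 cells, against the same 3 shares. Psme2, a subunit of the interferon-inducible activator PA28, rose by 1.06, 1.20 and 0.92, and Psme3, a nuclear proteasome activator, by 1.28, 1.15 and 0.93. Psmg1, an assembly chaperone, rose by 2.07, 1.92 and 1.35, and its partner Psmg2 by 1.92, 1.65 and 1.55. In neither list nor among Psmb5, Psmb6 and Psmb7 did limma call a gene between the genotypes.

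The average of the 10 genes was 8.14 ± 0.07, 8.22 ± 0.06 and 8.08 ± 0.19 log2 CPM (SD, n = 3) in unstimulated Tlr9het, Tlr997 and Tlr779 cells. It was 7.56 ± 0.08 in Tlr9het cells with CpG, 7.87 ± 0.05 in Tlr997 cells with CpG and 8.15 ± 0.07 in Tlr779 cells with CL097. The 3 unstimulated groups and the CL097 group had overlapping values, and both CpG groups lay below every other library except 1 unstimulated Tlr779 library at 7.86. Over the 12 libraries of the CpG arm, the genes whose values were most alike this average were Tpra1 (Pearson r = 0.98), Keap1 (0.98), Rom1 (0.98), Arpc5 (0.97) and Vkorc1 (0.97), and these libraries share 4 groups, so r describes mostly the differences between groups.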

How the data were processed

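Per the labels and the study's methods, B cells were enriched by negative selection, libraries came from an Illumina TruSeq Stranded mRNA kit, and reads were aligned to mm10 and counted per gene. The submitters' processing notes name FastQC 0.11.7, Trim Galore 0.6.5, STAR 2.6.1a, featureCounts from Subread 2.0.1 and limma. The deposited tables hold log2 CPM that the authors quantile normalized, 1 table per sample with 23420 genes and no counts. Among 6209 genes below -4 in all libraries, 524 differed between replicate numbers and averaged to the floor of -5.052, within 0.002, so an offset per replicate number had been removed before deposit. Genes were tested where at least 3 libraries of the fit were above 0 log2 CPM, with limma 3.58.1 in R 4.3.3 (variance trend, Benjamini-Hochberg adjusted p), in 1 fit of the 12 libraries of the CpG arm and 1 of the 6 of the CL097 arm, without a replicate block. The code was tested on simulated data. Same-numbered unstimulated and stimulated libraries deviated together in Tlr9het (r = 0.27 to 0.52) and Tlr779 (0.22 to 0.41), and less so in Tlr997 (0.04 to 0.39). Labels name 3 mice per genotype but do not tie libraries to mice, so p-values measure the spread between these libraries. That spread is what remained after the offsets per replicate number were removed. The fit without a block did not allow for this removal, so its p-values may be too small. The genes, lists and tests were chosen with earlier results of these data known. All 10 genes are named, and Psmb5, Psmb6, Psmb7, Irf1 and Socs1 always, and of each wider list up to 3 called genes of largest change per comparison, and the 5 genes most alike the average of the 10. Ifnar1, Igtp, H2-Q6, H2-Q7, H2-Q10 and H2-T22 were named after their values were seen. A gene of the transcription factor list is not reported here and is left out of that list's counts. Promoters came from RefSeq (GRCm38.p6) and exons from GENCODE M21. Alternatives were other filters, fold limits, pseudocounts, variance models, centring, sample sets, replicate blocks and each library left out.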

Additional observations from a re-analysis of the deposited data

Results flagged for a closer look

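The CpG response of Psmb8 had a difference between the genotypes of 0.44 log2 (Tlr997 minus Tlr9het, limma interaction term, adjusted p = 0.045). This was under the size of 0.5, so it was not called. The limma adjusted p of this difference ranged from 0.01 to 0.16 over the alternatives. Psmb8 fell in 3 of 3 same-numbered pairs of both genotypes. Any pairing would give that count, because its unstimulated and CpG values did not overlap in either genotype. The response of Nlrc5 ran downward in 3 of 3 same-numbered pairs of Tlr9het libraries, at -0.23, -0.23 and -0.06, and upward in 3 of 3 of Tlr997 libraries, at 0.54, 0.33 and 0.17. Its tested difference of 0.52 had a limma adjusted p of 0.19, with a range of 0.017 to 0.48 over the alternatives. Nlrc5 was listed here by name and not by its adjusted p, and its unstimulated and CpG values overlapped in both genotypes. Labels do not tie same-numbered libraries to mice, so the pairs are a description only. Among the regulators, the responses of Stat2 (0.79, limma adjusted p = 0.022), Ifngr1 (-0.93, limma adjusted p = 9.58e-04) and Socs1 (-1.24, limma adjusted p = 0.043) differed between the genotypes.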

How the results depend on the processing

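At a log2 change of 1, 4058, 3767 and 2580 genes were called in the responses of Tlr9het, Tlr997 and Tlr779 cells, with 1, 0 and 0 of the 10 class I genes, 74 genes and 0 of the 10 between the genotypes with CpG, and 46 in the difference of responses. With no filter, 1 of the 10 was called with CL097, 0 genes between unstimulated genotypes, 187 genes and 1 of the 10 with CpG, and 78 in the difference of responses. With no variance trend, 1 of the 10 was called between the genotypes with CpG and 98 genes in the difference of responses. With all 18 libraries in the fit, 1 of the 10 was called between the genotypes with CpG, and with only the groups compared, 0 genes between unstimulated genotypes. The replicate block within genotype gave 328 genes in the difference of responses, beside 177 without it, and 1 of the 10, Nlrc5, at 0.52 (limma adjusted p = 0.017). A replicate block over all fitted libraries changed no call among the 10 genes. Leaving out each library in turn gave 3 to 5 of the 10 in the CpG response of Tlr997 cells, 2 to 4 genes between unstimulated genotypes, 187 to 410 genes and 0 to 4 of the 10 with CpG, and 87 to 295 genes and 0 to 1 of the 10 in the difference of responses. The count between unstimulated genotypes was 4 without Tlr997 unstimulated replicate 2 or 3, that with CpG was 187 without Tlr9het CpG replicate 1, and that of the difference of responses was 87 without Tlr9het unstimulated replicate 1, 101, 101 and 90 without Tlr9het CpG replicates 1, 2 and 3, and 295 without Tlr997 unstimulated replicate 3. The direction of some small changes also turned when libraries were left out. H2-K1 with CL097 ranged from -0.0175 to 0.20. Between unstimulated genotypes, H2-K1 ranged from -0.0883 to 0.0372, B2m from -0.0283 to 0.078, Tap2 from -0.0807 to 0.0658, Psmb8 from -0.018 to 0.14 and Nlrc5 from -0.0538 to 0.22. With CpG, Tapbp ranged from -0.0017 to 0.15, and in the difference of responses Tapbp ranged from -0.064 to 0.091 and Psmb10 from -0.0315 to 0.11. None of these was called. The causes were not tested. Depth is unknown, so counting error cannot be given.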
